A study of Mus musculus with 2 samples.

Results

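Known transcripts of 6000 nt or longer in mouse heart are described here from long-read RNA sequencing, in which a complementary DNA copy of an RNA is read from end to end where possible. A transcript was taken when the authors had classed its model as Known, meaning that reads were matched to an annotated transcript, by its splice junctions where it has any, and when the length given for it was at least 6000 nt. This length is that of the annotation (GENCODE M21 on mm10) and not that of the reads. The files give no read ends for Known models, so how much of a transcript each read covered was not tested. By this rule 920 long known transcripts of 851 genes had at least 1 read, of 18855 known transcripts with reads in all. Replicate 1 held 704 of them, replicate 2 held 789, and 573 had reads in both.

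The series holds 1 group of 2 libraries from whole heart tissue of male B6CASTF1/J mice, a first-generation cross, aged 18 to 20 months. Each library was made from 2 µg of RNA, with no treatment named. The labels call them biological replicates 1 and 2, but both carry the same donor identifier and the same pair of preparation names. The p-values below therefore weigh a difference between these libraries against counting error alone, and their spread may be technical. Replicate 1 had 688861 mouse reads and replicate 2 had 1003999, so a count of 0 allows up to 4.36 and 2.99 counts per 1e6 mouse reads (CPM). The cardiomyocyte markers Myh6, Tnnt2, Tnni3, Actc1, Ryr2 and Ttn had reads in both libraries, while the skeletal muscle markers Myh1, Myh2, Myh4, Actn3 and Mylpf had 0 reads in both.

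A messenger RNA can be long in different ways. Some encode giant proteins, with many internal exons that carry a long reading frame, as the myosin heavy chains of the sarcomere do. Others encode proteins of ordinary size and owe their length to a 3′ untranslated region in the last exon, where binding sites for regulatory proteins and microRNAs lie. The end of a messenger RNA is set by cleavage and polyadenylation, which is directed by a short signal, most often AATAAA or ATTAAA, a few bases upstream, and many genes have several such ends. A read that matches a transcript of many internal exons has to span them all.

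The ends of these transcripts were examined for the signal, and the stretches around it are printed for Myh6-201, the most abundant transcript of the set, and for transcripts with a very long last exon in which new models of the same library ended much earlier. The 6 bases of the signal are in capitals. Only stretches that hold a signal are printed, so they do not show how often an end has one. For Eif4g2-213 no stretch at the annotated end is printed. Each stretch is 30 bases of the GENCODE M21 transcript sequence (mm10), read 5′ to 3′ on the transcript's strand.
Myh6-201 annotated end, chr14:54941929-54941958, minus strand: tggccaatccacAATAAAcataaacgttcg
Cdc37-201 earlier end, chr9:21139436-21139465, minus strand: gcaacaatgtccAATAAAcagttccaggtg
Cdc37-201 annotated end, chr9:21133225-21133254, minus strand: ccctaagccccaAATAAActtgccttctgt
Slc25a12-206 earlier end, chr2:71274274-71274303, minus strand: atacgaatcaaaAATAAAagcacaccaaaa
Slc25a12-206 annotated end, chr2:71271068-71271097, minus strand: ttttcatgtcttAATAAAagtttgtgctca
Ppp2ca-201 earlier end, chr11:52122703-52122732, plus strand: caggtaaagaaaAATAAAgatcaaggccac
Ppp2ca-201 annotated end, chr11:52127741-52127770, plus strand: tatactgtactcAATAAActgtaaacaaat
Glo1-206 earlier end, chr17:30592872-30592901, minus strand: atcataggctgaAATAAAgctaacactgtt
Glo1-206 annotated end, chr17:30584938-30584967, minus strand: cctcaattttatAATAAAatctattctcca
Usp13-201 earlier end, chr3:32935223-32935252, plus strand: tattttgaacaaAATAAAagattttataaa
Usp13-201 annotated end, chr3:32938039-32938068, plus strand: tgatagttttaaATTAAAagctattctcac
Eif4g2-213 earlier end, chr7:111070574-111070603, minus strand: actatcttctatATTAAAtaattactatat

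Long known transcripts took a small and similar share of both libraries. They held 12310 reads in replicate 1, which is 1.79% of mouse reads (95% Clopper-Pearson interval 1.76 to 1.82), and 16496 reads in replicate 2, which is 1.64% (1.62 to 1.67). These intervals cover counting error only. Known transcripts of 4000 to under 6000 nt held 4.10% and 3.81%. Of the 4192 transcripts of 6000 nt or longer in the annotation, 21.9% had a read, beside 13.3% of all annotated transcripts. By class the share was 27.8% at 4000 to under 6000 nt and 23.5% at 2000 to under 4000 nt. It was 17.6% at 1000 to under 2000 nt and 5.38% under 1000 nt. Most long known transcripts had few reads: 254 had a single read in the libraries together, 262 had 10 or more and 33 had 100 or more. This was near the pattern of all known transcripts. A single read was found for 27.6% of the long ones and 24.7% of all, and the median was 4 and 5 reads. The median length was 7052 nt. At the limit of the rule, Tmem106b-201 (6002 nt, 30 and 30 reads), Usp45-202 (6003 nt, 0 and 1) and Xpo1-202 (6004 nt, 12 and 18) lay just inside, and Nucks1-201 (5998 nt, 8 and 7), Gnb4-205 (5997 nt, 10 and 14) and Pcf11-201 (5995 nt, 1 and 2) just outside.

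Nearly all were messenger RNAs. There were 894 annotated as protein coding, 11 as retained intron and 6 as long intergenic noncoding RNA. Length came from the 3′ untranslated region in most of them: it made up over 50% of 562 transcripts, and the coding sequence over 50% of 296. Only 76 had a coding sequence of 6000 nt or more, and these together held 352 reads in both libraries. By exons, the last exon was over 50% of the length in 592 transcripts (5755 and 7683 reads), the internal exons in 254 (5883 and 7904 reads), the first exon in 10 and no part in 36, while 28 had 1 exon (301 and 464 reads). The median last exon was 4775 nt, against 2698.5 nt in known transcripts of 4000 to under 6000 nt.

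Both myosin heavy chain transcripts of the alpha isoform, the main motor of the adult mouse ventricle, headed the set. Myh6-201 (chr14:54941921-54966641, minus strand, 39 exons, 6113 nt) had 3952 reads in replicate 1 and 5298 in replicate 2, or 5507 ± 325 CPM (SD, n = 2). Myh6-205 (chr14:54941926-54966605, 39 exons, 6008 nt) had 1311 and 1575 reads, or 1736 ± 236 CPM. The pair took 42.8% and 41.7% of all reads on long known transcripts. Their annotated coding sequences were both 5817 nt long. Myh6-205 made up 24.9% (23.7 to 26.1) of the reads of the pair in replicate 1 and 22.9% (21.9 to 23.9) in replicate 2. Without Myh6, long known transcripts held 1.02% and 0.958% of mouse reads.

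The next transcripts had far fewer reads. Eif4g2-213 (chr7:111067750-111083030, 7995 nt), which encodes a translation initiation factor of the eIF4G family, followed with 330 and 393 reads. Glo1-206 (chr17:30584936-30612659, 9865 nt) encodes glyoxalase 1, which detoxifies methylglyoxal, and had 236 and 318 reads. Ppp2ca-201 (chr11:52098681-52127778, 7102 nt), the catalytic subunit of protein phosphatase 2A, had 240 and 292. Timm17a-201 (chr1:135295213-135313778, 7280 nt), a subunit of the import channel of the inner mitochondrial membrane, had 199 and 339. These 4 encode proteins of ordinary size: their coding sequences were 2721, 555, 930 and 516 nt, and their last exons 5008, 9291, 5877 and 6791 nt.

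The rest of the 20 highest ranged from 124 ± 16.7 CPM to 237 ± 37.8 CPM. Vesicle traffic was represented by the small GTPases Rab11b-201 (145 and 265 reads) and Rab18-205 (142 and 181). Mitochondrial and metabolic proteins were Fech-208 (135 and 195), ferrochelatase of heme synthesis, Dnajc15-202 (96 and 168), a cochaperone of the inner membrane, Slc25a12-206 (114 and 128), the aspartate and glutamate carrier, and Pnpla8-201 (89 and 131), a phospholipase. RNA-binding proteins were G3bp1-201 (175 and 205), of stress granules, and Hnrnpu-201 (132 and 135), a nuclear protein. Protein folding, dephosphorylation and turnover were represented by Cdc37-201 (135 and 187), the kinase cochaperone of Hsp90, Ppm1a-201 (77 and 136), a phosphatase, Usp13-201 (129 and 145), a deubiquitinase, and Fem1a-201 (115 and 153), a substrate receptor of a ubiquitin ligase. Myh7-201 (27 and 217), the beta myosin heavy chain, was also among them. The 20 together held 64.2% of all reads on long known transcripts.

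**Figure D1:**
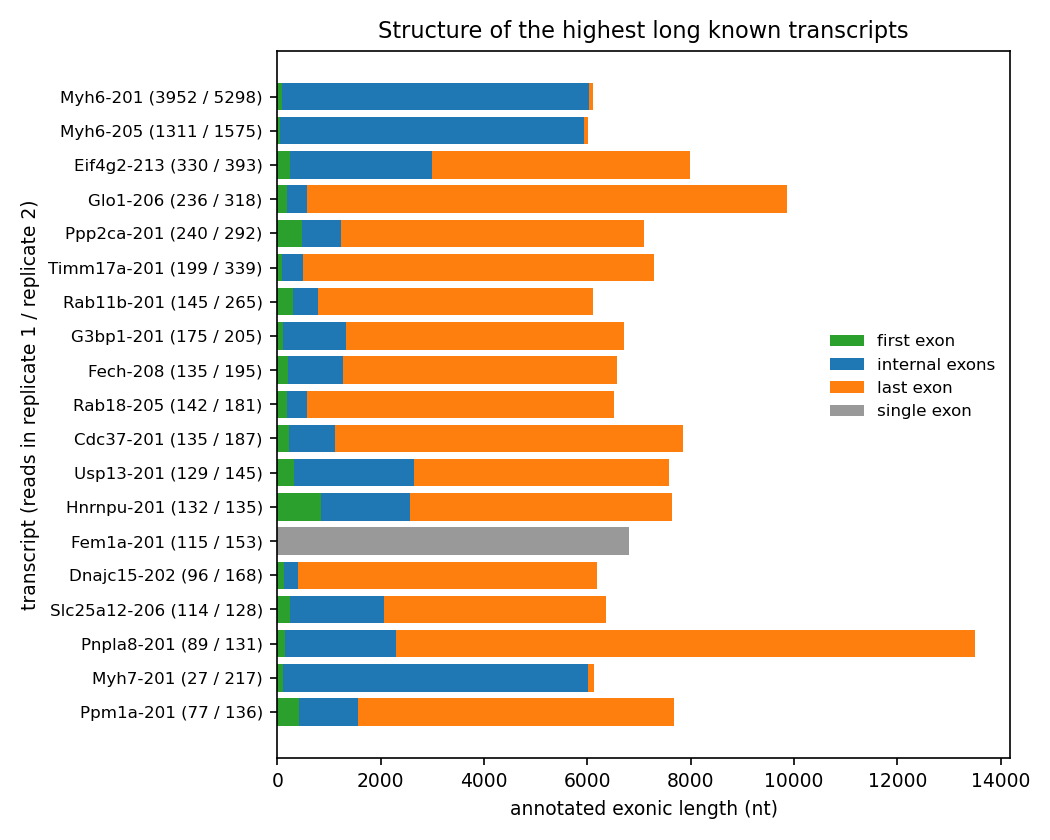
Bars show the annotated exonic length in nt of 19 of the 20 long known transcripts with the highest mean CPM, split into first exon, internal exons and last exon, with reads in replicates 1 and 2 beside each name. The 3 myosin transcripts are nearly all internal exons, Fem1a-201 is a single exon, and in Glo1-206 the last exon is 9291 of 9865 nt.

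The longest transcripts with 10 or more reads had their length in 1 exon. Hnrnpr-207 (21452 nt, 5 and 5 reads), a nuclear RNA-binding protein, had a last exon of 20029 nt. Neat1-201 (chr19:5824708-5845478, 20771 nt, 1 exon), the noncoding scaffold of nuclear paraspeckles, had 31 and 85 reads. Tmem245-201 (15981 nt) had 6 and 14 reads, Serbp1-201 (15474 nt) 18 and 23, and Zfp704-201 (13834 nt) 7 and 5. The longest of all with any read was D10Wsu102e-201, annotated at 123179 nt with a last exon of 122802 nt, with 3 and 2 reads. The files do not show how much of these transcripts was read, so these counts do not show that RNA of that length was read.

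Among the 851 genes, 61 had more than 1 long known transcript. In 9 of them a pair of these transcripts had at least 5 reads each over both libraries, and the split ranged from mostly 1 transcript to even. Mprip, a myosin phosphatase partner, had 37 and 61 reads on Mprip-204 and 6 and 11 on Mprip-202. Rab22a, a GTPase of early endosomes, had 70 and 90 reads on Rab22a-201 and 5 and 4 on Rab22a-203. In Abcc9, the regulatory subunit of the ATP-sensitive potassium channel, Abcc9-202 had 9 and 19 reads and Abcc9-203 had 0 and 7. Tmem33-201 had 16 and 19 beside 3 and 6 for Tmem33-204. Kif16b had 3 and 3 reads on both Kif16b-205 and Kif16b-201. Reads were also more even in Wdr26 (10 and 4 on Wdr26-208, 7 and 5 on Wdr26-207), Ppig (7 and 7, 4 and 4) and Mapk10 (4 and 4, 2 and 3).

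The reads of a gene were next divided among its models. Besides Known models the authors' classes are incomplete models, new combinations of known splice sites, models with a new splice site, and genomic models. Junctions of an incomplete model are a consecutive part of a known chain, but some incomplete models have 1 exon and no junction. Genomic models overlap a gene without matching its splicing. Over the 851 genes, long known transcripts held 43.0% (42.5 to 43.6) of reads in replicate 1 and 41.5% (41.0 to 42.0) in replicate 2. Incomplete models held 23.1% and 22.8%, and 18.0% and 18.5% without Myh6. New combinations held 12.8% and 12.9%, models with a new splice site 3.68% and 3.75%, and genomic models 8.11% and 9.41%. Without Myh6, genomic models held 13.7% and 15.4%.

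Genes whose most-read known transcript was long had less of their reads on it than genes of shorter transcripts. Taking genes that reached 20 reads in replicate 1 and in replicate 2, the median share of that transcript in replicate 1 was 90.4% where it was under 1000 nt, 83.1% at 1000 to under 2000 nt, 73.9% at 2000 to under 4000 nt, 62.8% at 4000 to under 6000 nt and 50% at 6000 nt or more (157 genes). In replicate 2 the median was 48.4% at 6000 nt or more. Of the incomplete reads of these 157 genes, most kept the 3′ part of the known chain: 3′ parts were 14.5% and 13.9% of gene reads without Myh6, and 5′ parts 1.64% and 1.75%. Models classed as both a 3′ and a 5′ part were counted with the 3′ parts only, which widens this contrast.

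Within the long set, the share on the long transcript was lower where the internal exons were longer. The internal exons are the stretch that a read must span to show every junction. Among 189 genes with at least 50 reads and a spliced long transcript, the long transcript held a median of 74.1% of gene reads where its internal exons summed to under 1000 nt (52 genes), 48.3% at 1000 to under 2000 nt (40 genes), 32.4% at 2000 to under 4000 nt (55 genes) and 8.43% at 4000 nt or more (42 genes). The medians of gene reads in these bins were 101, 80.5, 91 and 98.5. Incomplete models moved the other way, with medians of 1.96%, 6.29%, 16.0% and 44.8%. Replicate 1 alone gave 75.2%, 48.1%, 31.6% and 10.8% for the long transcript, and replicate 2 alone 74.9%, 49.1%, 33.3% and 8.95%. The ranges of the bins overlap widely, from 0.489% to 98.3% in the first and from 0.879% to 55.3% in the last.

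**Figure D2:**
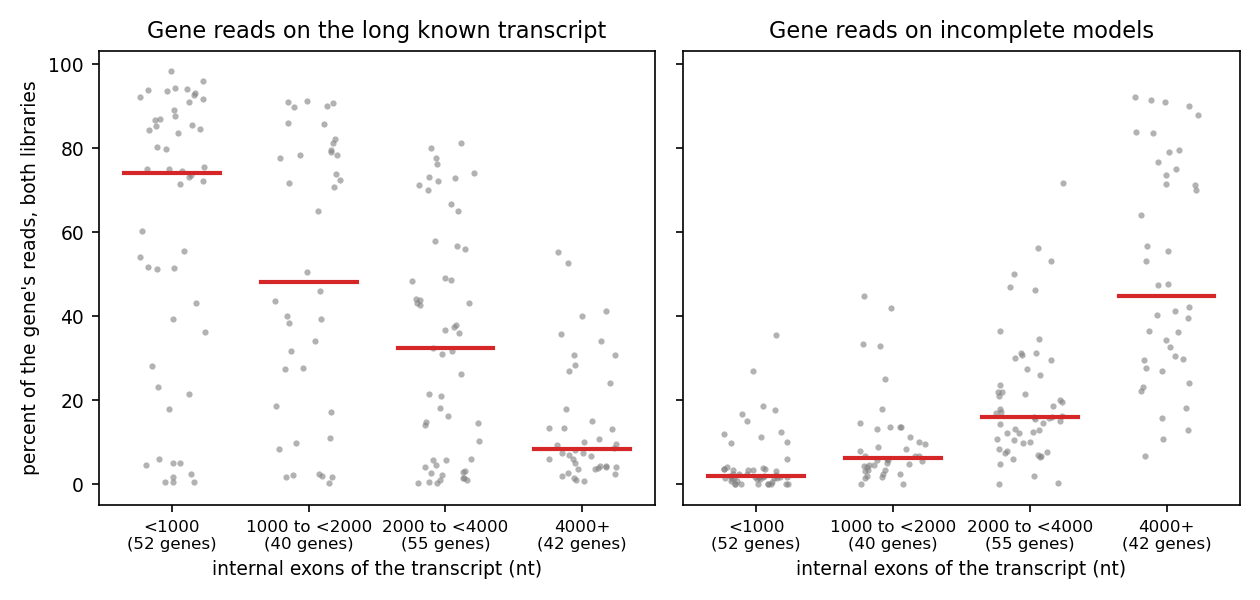
Points are genes with at least 50 reads and a spliced long known transcript, binned by the summed internal exons of that transcript in nt, and red lines are medians. On the y axis is the percent of the gene's reads in both libraries on the long known transcript (left, medians 74.1% to 8.43%) and on incomplete models (right, medians 1.96% to 44.8%).

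At one end stood transcripts with few or no introns. All 115 and 153 reads of Fem1a were on its single-exon transcript, as were 70 of 71 and 73 of 74 reads of Paqr9, a receptor-like membrane protein, and 20 of 21 and 34 of 34 of Purb, a DNA- and RNA-binding protein, on theirs. Mrpl17-202, a mitochondrial ribosome subunit, held 57 of 57 and 58 of 60 reads, and Ppp2ca-201 240 of 249 and 292 of 305. At the other end, the long transcript was a minor form beside shorter known transcripts. Asph-202 had 1 of 164 and 0 of 244 reads of its gene, of which 117 and 169 were on known transcripts, Ubl3-205 had 1 of 110 and 0 of 126, and Ube2d2a-206 had 0 of 62 and 1 of 96. In Slc4a3, an anion exchanger, and Pde4dip, a centrosomal and Golgi anchor, over 50% of reads were on incomplete models and the long transcript had 1 of 154 and 0 of 226, and 0 of 184 and 3 of 318.

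Incomplete shares varied widely among the 42 genes with internal exons of 4000 nt or more. They were low in Dysf, dysferlin of membrane repair (9 of 126 and 15 of 226 reads), D5Ertd579e (1 of 15 and 6 of 50) and Rbm5, a splicing regulator (2 of 30 and 7 of 40), whose long known transcripts had 4 and 4, 5 and 15, and 0 and 1 reads. Others were high. Dsp, desmoplakin of the intercalated disc, had 50 of 56 and 91 of 99 reads on incomplete models and 5 and 6 on long known transcripts, of which Dsp-201 (9592 nt) had 3 and 5. Flnc, a filamin of the Z-disc, had 37 of 40 and 46 of 50 incomplete reads, and 1 and 3 on Flnc-202. Col4a2, a chain of basement membrane collagen, had 150 of 171 and 238 of 260 incomplete reads and 20 and 17 on Col4a2-201, while its partner Col4a1 had 50 of 81 and 40 of 81, and 24 and 34 on Col4a1-201. Larger shares on long known transcripts were found in 2610507B11Rik (35 of 79 and 48 of 122 reads), Sbf1 (15 of 29 and 15 of 28) and the myosins. Myh7 had 27 of 60 and 217 of 381 reads on Myh7-201. In Myh6, 30.4% and 29.5% of reads were incomplete and 23.8% and 24.8% were on new spliced models, and 67.6% and 69.9% of all its reads were on models of 6000 nt or longer.

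Lists of genes by role show which heart proteins the long transcripts cover. The gene counts given for each list are out of all its genes with reads. These include genes with no annotated transcript long enough for the rule, so the counts do not rank the lists against each other. In the sarcomere and Z-disc list all 34 genes had reads and 12 had a long known transcript, with 5312 and 7137 reads, nearly all on Myh6 and Myh7. The next was Palld-204, of the actin-binding protein palladin, with 6 and 11. Genes of the list without one included the scaffold titin (Ttn, 74 and 92 reads on all models), whose longest annotated transcript is 106824 nt, xin repeat protein 2 (Xirp2, 68 and 177) and myosin-binding protein C (Mybpc3, 349 and 438). None of these 3 had a read on any known transcript. Whether Mybpc3 has an annotated transcript long enough for the rule is not given here.

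Ion channels and calcium handling gave few reads on long known transcripts. This depends on the make-up of the list, as the channel subunit Abcc9 (9 and 19 reads on Abcc9-202) was placed with the receptors. All 24 genes had reads, 4425 and 6316 in all, and the 5 long known transcripts of the list had 2 and 5. Atp2a2, the calcium pump of the sarcoplasmic reticulum, gave 4101 and 5890 of the gene reads, and its longest known transcript with reads was 5674 nt. Ryr2, the calcium release channel of the sarcoplasmic reticulum, had 71 and 91 reads, with 0 on known transcripts of any length. Cacna1c, the L-type calcium channel, has 23 annotated transcripts of 6000 nt or longer and had 30 and 28 reads, also with 0 on known transcripts. Membrane skeleton and linker proteins had a long known transcript in 8 of 31 genes with reads (22 and 24 reads), led by Dsp-201 and by Sptbn1-201 (3 and 4), a spectrin. Plec, plectin, had 64 and 59 reads, of which 61 and 54 were on genomic models.

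In the extracellular matrix list 13 of 29 genes with reads had a long known transcript, with 77 and 87 reads, led by Col4a1-201, Col4a2-201 and the laminin chain Lamc1-201 (14 and 13). Receptors had 11 of 31 genes and 45 and 89 reads, led by Il6st-203, the shared receptor of the interleukin 6 family (18 and 36), Abcc9-202 and Igf2r-201 (6 and 7). Kinases, phosphatases and GTPase regulators had 13 of 34 genes and 18 and 54 reads, led by the phosphodiesterase Pde3a-201 (7 and 10), the kinase Rock1-201 (2 and 15) and Ppp1r3a-201 (2 and 10), a glycogen-targeting subunit of protein phosphatase 1.

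Transcription and chromatin regulators had 14 of 55 genes and 59 and 86 reads, led by Nfib-202 (22 and 36), Ppargc1a-203, the coactivator of mitochondrial biogenesis (10 and 7), and Foxo3-203 (4 and 8). RNA processing had 10 of 38 genes and 48 and 65 reads, led by the splicing factor Sf3b1-201 (24 and 33) and by Qk-204, an RNA-binding protein (12 and 17). Ubiquitin, autophagy and traffic had 11 of 41 genes and 54 and 66 reads, led by Fbxo32-201, the muscle ubiquitin ligase subunit atrogin-1 (20 and 21), and by Snx13-201 (12 and 24). Metabolism and transport had 14 of 42 genes and 73 and 81 reads, led by the lipoprotein receptor Vldlr-207 (26 and 31). Long noncoding RNAs had 4 of 19 genes, with 52 and 106 reads, led by Neat1-201 and Malat1-201 (18 and 19). Over the lists, 378 genes had reads, and 278 of them have an annotated transcript of 6000 nt or longer. Of these 278 genes, 115 had a read on one. Over all genes, 851 of 1876 did, or 45.4%.

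Levels of single transcripts were then compared between the libraries. Known transcripts with 10 reads or more over the pair of libraries were tested by a two-sided exact binomial test, with the totals of mouse reads as the reference, with Benjamini-Hochberg adjustment over all 7595 of them and a threshold of 0.05. Over all known transcripts 237 were called, 3.12% (0.961% higher and 2.16% lower in replicate 2). Among the 262 long known transcripts tested 7 were called, 2 higher and 5 lower. Only 262 of the 920 had the reads to be tested. The median log2 ratio of replicate 2 to replicate 1, with 1 CPM added, was −0.08 over these 262 and −0.10 over all 7595. On that scale the libraries correlated at Pearson r = 0.909 and Spearman rho = 0.829 over the 262, and at 0.940 and 0.902 over all tested. These are across transcripts of 1 pair of libraries, and transcripts are not independent replicates.

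The highest call was the beta myosin heavy chain. Myh7-201 (chr14:54970684-54994626, 41 exons) stood at 39.2 CPM in replicate 1 and at 216 in replicate 2, a log2 ratio of 2.43 (exact binomial test, adjusted p = 7.91e-22). Trabd2b-201, a membrane metalloprotease, had 12 and 53 reads, a log2 ratio of 1.55 (exact binomial test, adjusted p = 0.0100). Prep-201, prolyl endopeptidase, was lower in replicate 2, with 36 and 13 reads and a log2 ratio of −1.93 (exact binomial test, adjusted p = 4.4e-04). These 3 were called under all the scalings and read minimums tried.

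The other 4 calls were lower in replicate 2 and depended on those choices. Usp15-211, a deubiquitinase, had 19 and 7 reads (log2 ratio −1.84, exact binomial test, adjusted p = 0.037) and Bcl2l13-201, a mitochondrial outer membrane protein, 46 and 32 (−1.04, adjusted p = 0.040). Myh6-205 had a log2 ratio of −0.28 (exact binomial test, adjusted p = 2.81e-05) and Myh6-201 one of −0.12 (adjusted p = 0.0041). Scaling by TMM factors, a trimmed mean of log ratios, moved every ratio by 0.15 and DESeq2 size factors by 0.17 on the log2 scale. With either, 5 of the 262 long known transcripts were called, 4 higher and 1 lower. Over all 7595 known transcripts tested, 239 were called with TMM factors and 253 with DESeq2 size factors. Myh6-201 changed sign, to 0.03 and 0.05, with neither Myh6 transcript called. Neat1-201 and Rab11b-201 were then called higher. Myh6 and Myh7 are close paralogs on 1 chromosome, and how the authors assigned reads that could come from either is not given in the sources used here.

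**Figure D3:**
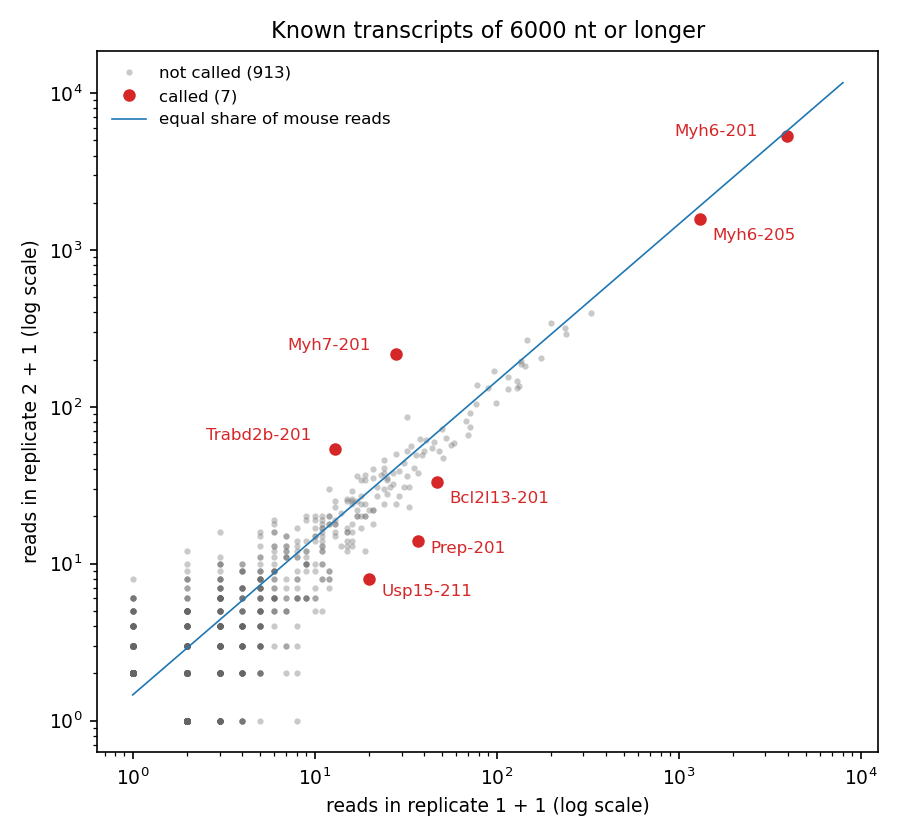
Each point is one of the 920 long known transcripts, with reads plus 1 in replicate 1 (x) and replicate 2 (y), both on log axes, and the line marks an equal share of mouse reads. The 7 called transcripts are in red: Myh7-201 and Trabd2b-201 lie above the line, and the 5 others below it.

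The share of a gene's reads on its most-read known transcript was compared by Fisher's exact test where a gene had 20 reads or more in both replicate 1 and replicate 2, with Benjamini-Hochberg adjustment over all 4006 genes. Of all genes 24 were called (0.599%), and of the 157 whose transcript was long 0 were called. At an unadjusted p under 0.05 there were 8 of these 157, beside 262 of all 4006 genes. The smallest was Usp13, with 129 of 159 and 145 of 217 reads on Usp13-201 (Fisher's exact test, adjusted p = 0.169).

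The 3′ ends were examined last. New models carry ends of their own, and those that use the last splice acceptor of a known transcript show where their own reads ended. Ends of the reads counted on the known transcript itself are not given, and these reads can be far more. Glo1-206 had 554 reads over both libraries, beside 4 and 8 on such new models. How the authors set the end of a model with several reads is not given in the sources used here. New models with a shared last acceptor existed for 331 long known transcripts, with 914 reads in replicate 1 and 1234 in replicate 2. Of these reads 76.5% (73.6 to 79.2) and 76.9% (74.4 to 79.2) ended at least 1000 nt before the annotated end. The share was 51.6% and 50.8% for known transcripts of 4000 to under 6000 nt, 19.9% and 22.4% at 2000 to under 4000 nt and 2.48% and 2.35% at 1000 to under 2000 nt. Under 1000 nt no end can lie that early. A short last exon leaves no room for an early end, so part of this order is given by the exon lengths.

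**Figure D4:**
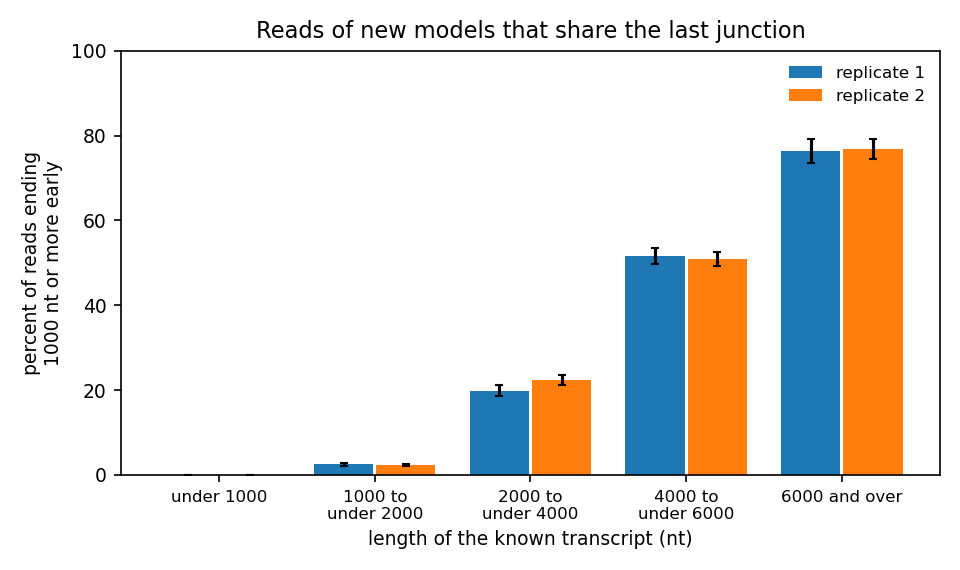
Bars give the percent of reads of new models sharing a known transcript's last splice acceptor that ended at least 1000 nt before its annotated end, by length of the known transcript and replicate, with 95% Clopper-Pearson intervals. The share is 76.5% and 76.9% at 6000 nt and over and 2.48% and 2.35% at 1000 to under 2000 nt.

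With last exons of at least 2000 nt only, the share was 88.9% and 90.7% for the long transcripts. It was 57.9% and 57.7% at 4000 to under 6000 nt and 61.9% and 69.6% at 2000 to under 4000 nt. With this limit the share thus no longer rose with each longer class. The last exons still differed in annotated length, with medians over reads of 5008 nt for the long transcripts and 3057 nt at 4000 to under 6000 nt. At 2000 to under 4000 nt these medians were 2353 and 2403 nt. The observed last exons had medians of 1464 and 1409 nt for the long transcripts and 1689 and 1589 nt at 4000 to under 6000 nt. They were shorter at 2000 to under 4000 nt, with medians of 988 and 919 nt. The most-read ends of the libraries were then set side by side. Of 150 long transcripts with such a last exon and such models in both, the most-read end was early in both for 133 (88.7%), and for 82 (54.7%) the most-read last exon had the same length within 20 nt.

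Single transcripts show ends that matched and ends that did not. In Cdc37-201, with an annotated last exon of 6742 nt, the most-read new model ended after 536 nt in both libraries, with 24 and 33 reads. In Slc25a12-206 (annotated 4291 nt) it ended after 1087 nt in both, with 17 and 23 reads. In Ppp2ca-201 (5877 nt) it ended after 833 and 835 nt, with 4 and 8 reads, and in Eif4g2-213 (5008 nt) after 2197 and 2200 nt, with 99 and 106 reads. Glo1-206 (9291 nt) had its most-read end at 1361 nt in both, with 3 and 6 reads, at the annotated end of another transcript. Most-read ends differed between libraries in Timm17a-201 (6791 nt), at 456 nt with 7 reads and 878 nt with 13. In G3bp1-201 (5380 nt) they were at 1059 and 867 nt, with 8 and 9 reads. In Rab18-205 (5950 nt) they were at 1703 and 1469 nt, with only 2 and 3 reads. In Hnrnpu-201 (5065 nt) they were at 1108 and 1305 nt, with 2 and 8 reads. Except in Timm17a-201, the ranges of all such ends in the libraries overlapped. Myh6-201 has a last exon of 81 nt, and the new models counted for it here ended after 74 nt in both, with 61 and 59 reads. These are a small part of the reads on new models of Myh6, whose incomplete models alone held 3559 and 4570.

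**Figure D5:**
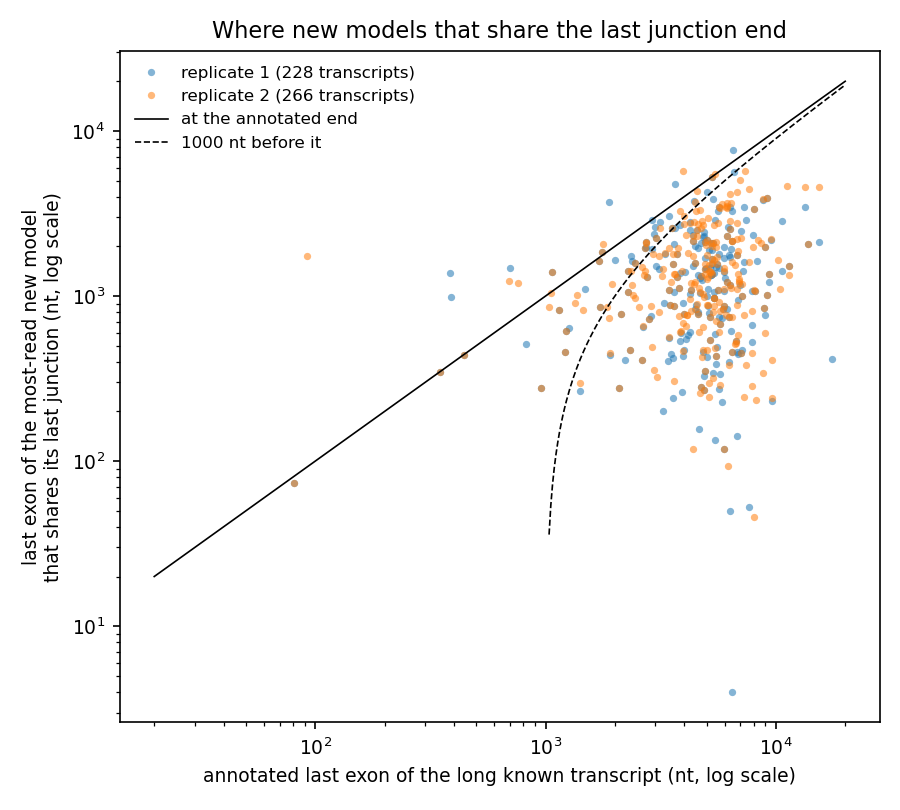
Each point is a long known transcript in 1 library, with its annotated last exon (x, nt) and the last exon of the most-read new model that shares its last splice acceptor (y, nt), both on log axes. Most points lie below the dashed line, which marks an end 1000 nt before the annotated one, and Myh6-201 (81 and 74 nt) lies near the solid line.

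The signals AATAAA and ATTAAA, 6 bases each, were searched on the transcript strand in the 50 nt before each end. The annotated end had 1 in 757 of the 920 long transcripts (82.3%), beside 79.4% at 4000 to under 6000 nt and 67.8% of all known transcripts with a sequence. Of 479 distinct early ends in the last exons of long transcripts, 249 (52.0%) had 1, and of the 463 that were not at the end of another annotated transcript, 242 (52.3%) had 1. Windows of 50 nt tiled over the same last exons had 1 in 5.71% of 90967. At the early end of Cdc37-201 the signal printed above was followed by 20 nt up to the end, at that of Slc25a12-206 by 19 nt and at that of Glo1-206 by 18 nt. A match is a description of these letters and not proof of a site in use.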

How the data were processed

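The authors deposited whole-number read counts per transcript model for each library, not normalized, with the length and exon number of each model and an annotation of new models. Per the deposited text descriptions the build is mm10 and known models come from GENCODE M21, and per the file headers TALON is the source of new models. No aligner, read filter or version is given in the sources used here. The long known transcripts and the gene lists were chosen with earlier results of these data known. CPM is per 1e6 mouse reads, without spike-ins, and log2 ratios add 1 CPM. Exon, coding and end positions came from the M21 annotation and the deposited annotations. Tests were the exact binomial and Fisher tests (scipy 1.17.1) with Benjamini-Hochberg adjustment over the whole table, and they were tested on simulated data. No test between conditions was possible with 1 group. Shares have 95% Clopper-Pearson intervals. Alternatives used TMM (edgeR 4.0.16) and DESeq2 1.42.0 size factors in R 4.3.3, other totals, length limits and read minimums, thinning, each library alone and, added after seeing the data, leaving out Myh6. Replicate 1 held 688861 and replicate 2 held 1003999 mouse reads. Named transcripts were the 20 highest, the 5 longest with 10 reads, all called ones, the leading and longest ones of each gene list, those at the length limit, genes with several long transcripts, the leading isoform test, and the 5 highest and 5 lowest shares of gene reads, of which the text gives those with most reads. Genes with long internal exons, and genes without a long known transcript described by read class, were chosen after their values were seen. Python 3.11.15, numpy 2.4.6, pandas 2.3.3 and matplotlib 3.10.9 were used. Some items that the naming rule takes are not reported here.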

Additional observations from a re-analysis of the deposited data

How the results depend on the processing

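The number of long known transcripts was 920 with a read in either library, 666 with at least 2 reads, 859 with replicate 2 thinned to the depth of replicate 1, and 573 with a read in each library. Single libraries gave 704 to 789. Their mean share of mouse reads, 1.72%, was 2.42% of known reads only, 2.60% with a limit of 5000 nt, 0.556% with a limit of 7000 nt and 0.991% without Myh6, and 1.64% to 1.79% in single libraries. Their mean share of their genes' reads, 42.3%, was 46.3% without genomic models, 81.7% of known reads, 40.7% without Myh6, and 41.5% to 43.0% in single libraries. The incomplete share, 22.9%, was 30.7% of known and incomplete reads, 18.3% without Myh6, and 22.8% to 23.1% in single libraries. The 7 binomial calls of 262 tested became 5 of 262 with TMM, DESeq2 size factors or known reads as totals. They became 5 of 920 with a minimum of 1 read and 8 of 152 with a minimum of 20. Over all known transcripts, 237 of 7595 were called at first, and 239, 253 and 217 of 7595 with these 3 scalings. With minimums of 1 and 20 reads, 179 of 18855 and 260 of 5378 were called. Under all of these settings 3 long known transcripts were called. The isoform test called 0 of 285 genes with a minimum of 10 reads and 0 of 95 without incomplete and genomic models. Neither test can be made with a library left out. No paired analysis was possible because the libraries form 1 group. Of 77 named levels, 53 rose by more than their SD with known reads as the total. With 2 libraries a single one always lies within 1 SD of the mean, so leaving one out is no check of a level. Single libraries gave 39.2 to 216 CPM for Myh7-201, 12.9 to 52.3 CPM for Prep-201 and 2.90 to 14.9 CPM for Rock1-201. With 254 of 920 transcripts at a single read, absence from 1 library is not a detectable difference at this depth.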

Other observations

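Models of 6000 nt or longer were also found outside the known class. New combinations of known splice sites on models of 6000 nt or longer held 2988 reads in replicate 1 and 4363 in replicate 2, of which Myh6 had 63.2% and 58.9%. Models with a new splice site had 408 and 662 reads at that length, and incomplete models 937 and 1579. A new model of Qk with 8 exons and 8504 nt had 79 and 115 reads, more than the 12 and 17 on the known Qk-204. One of Opa1, a fusion protein of the inner mitochondrial membrane, with 30 exons and 6341 nt, had 40 and 54. The longest new spliced model was from titin, Ttn, with 85 exons and 21558 nt, on 1 read of replicate 2. Models of Ttn of 14354 nt (replicate 1) and 14063 nt (replicate 2) and one of Ryr2 of 11618 nt (replicate 1) also rested on 1 read each.

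Some genes without a long known transcript had most reads on 1 short new model. In Xirp2 a single-exon incomplete model of 1835 nt in replicate 1 and 1843 nt in replicate 2 held 48 of 68 and 151 of 177 reads. In Tns1, tensin 1, a single-exon genomic model of 2260 and 2570 nt held 98 of 108 and 119 of 146 reads.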
